A study of Mus musculus with 4 samples.

Results

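The 10 genes described here are the circadian clock genes Arntl, Clock, Dbp, Tef, Per1, Per2, Per3, Nr1d1, Nr1d2 and Ciart, taken by symbol from the 32285 genes of a spatial expression data set of injured newborn mouse hearts. They were chosen as a pathway and not by a cut on a measured value, but with earlier results of these data known. The question put to them was whether genes known to peak at opposite times of day stood in opposite positions in the 4 hearts. Hearts of ICR mice, an outbred strain, had received a cryoinjury at postnatal day 1, when a cooled probe was held to the apex of the left ventricle for 5 seconds. They were collected 1, 4, 7 and 14 days later (d1, d4, d7 and d14), at postnatal days 2, 5, 8 and 15. Each time point was 1 fresh frozen section of 10 µm on a 10x Genomics Visium array, whose barcoded spots each take up RNA from several cells. All 4 groups carried the injury, and no section of an uninjured heart was analysed here. The labels used here give no hour of harvest, so hour of day, age, time since injury, animal and sex cannot be told apart in any comparison between sections. With 1 section per time point there was no replicate error, no test and no p-value.

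The mammalian clock is a feedback loop of transcription that runs in most cells, heart muscle included. ARNTL and CLOCK proteins bind E-box sequences as a pair and switch on the Per, Cry, Nr1d and Ciart genes and the genes of the PAR bZIP factors DBP and TEF. PER and CRY proteins then block that pair, while the NR1D proteins repress Arntl through ROR response elements, so that in adult mouse tissues Arntl RNA peaks at about the opposite time of day to Nr1d1 and Dbp RNA. In rodent hearts this oscillation becomes established around birth and the weeks after it, and glucocorticoids are known to induce Per1 directly.

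UMIs (unique molecular identifiers, 1 per captured RNA molecule) were summed over the spots with at least 500 UMIs, which numbered 445, 662, 774 and 1175 in order of time. Levels are given as CPM, UMIs per 1e6 UMIs after leaving out haemoglobin and mitochondrially encoded genes, and the totals behind them ranged from 3224558 at d1 to 5846389 at d4. At that depth a single UMI was worth between 0.171 and 0.310 CPM. The median spot held 7810 to 8028 UMIs at d1, d4 and d7 and 3770 at d14, and mitochondrially encoded genes took between 5.17% and 11.6% of UMIs. All 6 cardiomyocyte markers were present in every section, at a summed level of 49676 to 72631 CPM. Of 4 lung epithelial markers, Scgb1a1 and Sftpb had 0 UMIs in every section, and Sftpc had 1 at d7 and 1 at d14. Ager had 14, 27, 9 and 4 UMIs in order of time. Summed fibroblast markers were 812 CPM at d1 and 1789 to 1899 CPM later, macrophage markers 518 CPM at d14 and 161 to 208 CPM before, and neutrophil markers 214 CPM at d1 and 19.2 to 43.4 CPM later. Their part in the differences between sections was not tested. The d7 section alone held UMIs of the Y-linked gene Eif2s3y, 460 of them. Intervals are exact 95% intervals and cover counting error only. In such pooled tissue, fewer cells of a type and less RNA per cell cannot be told apart.

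Of the 9 clock genes abundant enough to be compared, 5 differed at least 2-fold beyond counting error between at least 1 pair of sections, as did 26.9% of all genes compared, and they had no common order of sections. Nr1d1 was lowest at d1 and highest at d14. Per1 and Per2 had their lowest level at d4, Dbp was higher at d7 and d14 than at d1 and d4, and Tef and Nr1d2 were highest at d14. Clock and Per3 stayed within a narrow range, and Arntl had its highest value at d4.

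**Figure D1:**
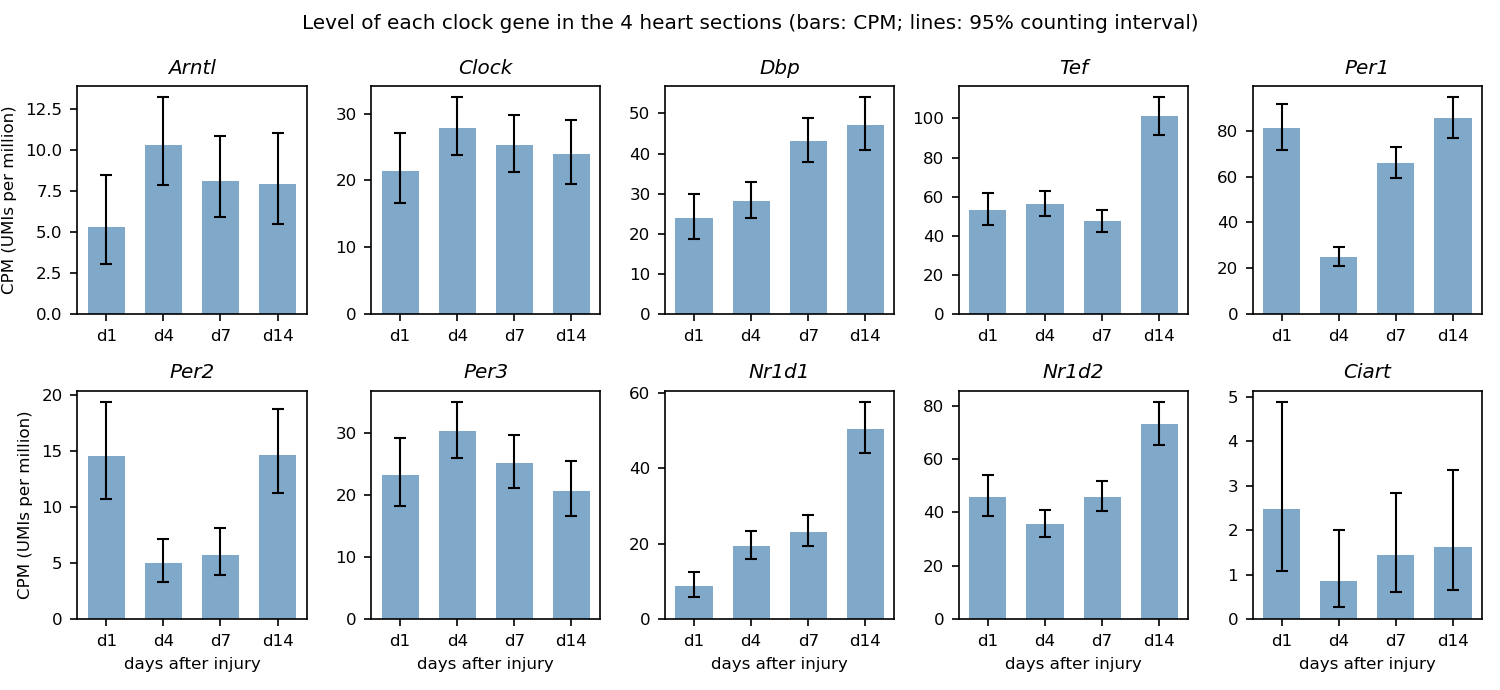
Level of each clock gene (bars, in CPM, each panel with its own axis from 0) in the d1, d4, d7 and d14 sections, with lines for the exact 95% Poisson interval of the UMI count. Nr1d1 goes from 8.68 CPM at d1 to 50.4 at d14, Per1 has its low value of 25 CPM at d4, and the bars of Clock lie between 21.4 and 27.9 CPM.

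A gene was called higher or lower when its ratio between a pair of sections was at least 2-fold and the interval excluded 1. This was asked of the 10691 genes with a mean of at least 5 CPM over the 4 sections, among them 9 of the 10 clock genes. Ciart fell under that minimum. The 6 pairs of sections share sections, so their counts are not independent of each other. At d4 against d1, 1 clock gene was higher, where 6.82% of all genes tested were, and 2 were lower, where 1.79% of all genes were. At d7 against d1, 1 was higher against a background of 4.40% and 1 was lower against 3.45%. At d14 against d1, 1 was higher against 7.60% and 0 were lower against 8.16%. Between the later sections no clock gene was lower in the later one. One of them was higher at d7 against d4, where 0.917% of all genes were higher and 3.00% lower. At d14, 4 were higher against d4, where 4.84% of all genes were higher and 11.1% lower, and 3 were higher against d7, where the shares were 4.93% and 5.50%.

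The median log2 ratio of the 9 genes, with that of all genes tested in brackets, was 0.24 (0.19) at d4 and 0.11 (-0.01) at d7 against d1. It was 0.58 (-0.05) at d14 against d1 and 0.21 (-0.21) at d7 against d4. It was 0.84 (-0.27) at d14 against d4 and 0.38 (-0.04) at d14 against d7. The gap between the medians of the clock genes and of all genes was widest at d14 against d4. The all-gene medians that involve d4 depended on the scaling: with TMM, which scales libraries to a trimmed mean of gene ratios, they were 0.01 at d4 against d1 and -0.02 at d14 against d4. Of the genes called at d4 against d1, 79.2% were higher, and 62.1% with TMM. The same share went from 30.3% to 50.6% at d14 against d4 and from 23.4% to 50.7% at d7 against d4. Scaling by CPM over all genes took it from 56.0% to 45.3% at d7 against d1.

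**Figure D2:**
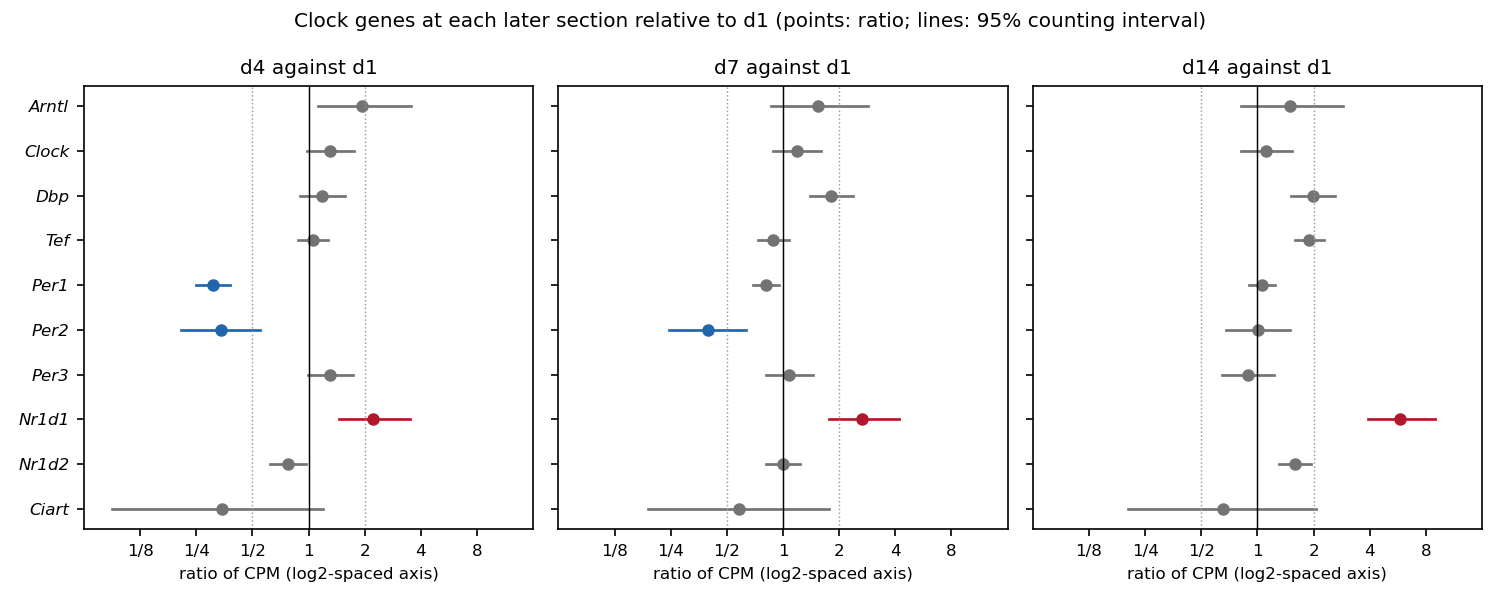
Ratio of CPM of each clock gene at d4, d7 and d14 to d1 on a log2-spaced axis, with lines for the exact 95% counting interval. Red marks genes called higher, blue genes called lower and grey genes not called; dotted lines stand at a ratio of 2 and its inverse. The Nr1d1 point moves from 2.23 to 5.81 across the panels, and Per1 and Per2 stand to the left at d4.

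Arntl (chromosome 7, 113207465 to 113314126, plus strand, GRCm38) encodes the bHLH-PAS activator also known as BMAL1, the partner of CLOCK. Its level was 5.27 CPM at d1 from 17 UMIs, 10.3 at d4 from 60, 8.08 at d7 from 45 and 7.90 at d14 from 34. The d1 section was the lowest and d4 the highest. No neighbours in the order d1, d14, d7, d4 differed beyond the interval of their ratio. The ratio of d4 to d1 was 1.95 (1.12 to 3.56), under the 2-fold of a call, and it was 1.71 (0.985 to 3.13) with TMM. Without the injury-list-rich spots described further on it was 2.04 (1.08 to 4.13), which meets the call. Among the 10691 genes, 3095 had a wider range over the sections than Arntl.

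The RefSeq promoter windows of Arntl (GRCm38.p6, 250 bases before to 50 after a start site) held the ROR element core TAGGTCA and its variant TAGGTTA, the letters through which NR1D and ROR proteins are known to act on this gene. They are shown because no other clock gene with a window held either. In the same search over both strands, 2.61% of the 32851 mouse promoter windows held TAGGTCA and 1.44% held TAGGTTA. Capitals mark the element in the 2 stretches of 30 bases on the plus strand, chr7:113207494-113207523 and then chr7:113207530-113207559. The elements begin at -6 and 31 counted from the RefSeq start at 113207511.
Arntl TAGGTTA: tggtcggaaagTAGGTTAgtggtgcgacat
Arntl TAGGTCA: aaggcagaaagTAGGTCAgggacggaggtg

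Clock (chromosome 5, 76209868 to 76304792, minus strand), the partner of ARNTL in the activator pair, had the narrowest range of the 9 tested clock genes. It measured 21.4 CPM for d1, 27.9 for d4, 25.3 for d7 and 23.9 for d14, from 69, 163, 141 and 103 UMIs. In 0 of the 6 pairs of sections did the interval of the ratio exclude 1, and the ratio of d4 to d1 was 1.3 (0.977 to 1.75). Of the genes tested, 81.7% had a wider range than Clock. With TMM its d4 value was no longer the highest, at a ratio of 1.05 (0.833 to 1.33) for d7 against d4.

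Per1 (chromosome 11, 69095217 to 69109960, plus strand) encodes a PER protein of the repressor complex and is the period gene known to respond fastest to hormones and other signals. It measured 80.9 CPM at d1, 25 at d4, 65.9 in the d7 section and 85.5 at d14, from 261, 146, 367 and 368 UMIs. The d4 section stood apart from the other three. Per1 was 3.24-fold (2.64 to 4.00) lower at d4 than at d1, 2.64 times (2.17 to 3.22) as high at d7 as at d4, and 3.42 times (2.82 to 4.18) as high at d14 as at d4. At d7 the ratio to d1 was 0.814 (0.693 to 0.958). Levels at d1 and d14 did not differ beyond the interval, with a ratio of 1.06 (0.899 to 1.24). The dip at d4 kept its call with TMM and with CPM over all genes.

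Per2 (chromosome 1, 91415982 to 91459324, minus strand), the other main period repressor, measured 14.6 CPM at d1, 4.96 at d4, then 5.75 at d7 and 14.6 at d14, from 47, 29, 32 and 63 UMIs. The sections fell into a low pair, d4 and d7, and a high pair, d1 and d14, whose intervals did not overlap. Per2 was 2.94-fold (1.81 to 4.84) lower at d4 and 2.54-fold (1.58 to 4.11) lower at d7 than at d1. At d14 it was 2.95 times (1.87 to 4.75) its level at d4 and 2.55 times (1.64 to 4.03) its level at d7. Per2 thus differed from Per1 at d7. There were 18 Per2 UMIs per 100 Per1 UMIs at d1, 19.9 at d4 and 17.1 at d14, but 8.72 at d7, an odds ratio of 0.485 (0.291 to 0.80) against d1. Such ratios of 1 gene to another do not depend on the scaling of a section and are not a comparison of the genes' abundance. The pairs of Per, Nr1d and PAR bZIP genes were chosen after the values were seen.

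Per3 (chromosome 4, 151003652 to 151044665, minus strand), the third period gene and not needed for the rhythm itself, measured 23.3 CPM for d1, 30.3 for d4, 25.1 for d7 and 20.7 for d14. Its UMIs numbered 75, 177, 140 and 89. It was not low at d4, where its value was its highest. No neighbours in its order differed beyond the interval, with a ratio of 0.830 (0.660 to 1.04) for d7 against d4. That ratio was 0.770 (0.612 to 0.966) with CPM over all genes and 0.760 (0.599 to 0.963) without the injury-list-rich spots. The ratio of d14 to d4 was 0.683 (0.523 to 0.886), and 0.812 (0.622 to 1.05) with TMM. Set against Per1, there were 28.7 Per3 UMIs per 100 Per1 UMIs at d1, 121 at d4, 38.1 in the d7 section and 24.2 at d14. The odds ratio of d4 to d1 was 4.21 (2.97 to 6.0). Per3 lies wholly inside the gene Camta1 on the same strand, and how the authors' counting split reads between them is not given in the sources used here.

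The upstream windows of Per1 and Per3 are shown because, of this family, Per1 had its lowest level at d4 and Per3 its highest. Each gives the 250 bases before a RefSeq start site (GRCm38.p6), 5′ to 3′ on the gene's strand. That of Per1 is chr11:69098699-69098948, plus strand, with the E-box CACGTG in capitals. That of Per3 is chr4:151044666-151044915, minus strand, with both copies of the D-box TTATGTAA, the element of the PAR bZIP factors, in capitals.
Per1: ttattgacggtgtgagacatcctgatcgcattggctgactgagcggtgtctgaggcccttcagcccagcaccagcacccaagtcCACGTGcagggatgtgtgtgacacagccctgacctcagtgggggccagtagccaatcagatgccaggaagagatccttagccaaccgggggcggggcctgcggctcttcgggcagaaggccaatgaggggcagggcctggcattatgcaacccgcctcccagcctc
Per3: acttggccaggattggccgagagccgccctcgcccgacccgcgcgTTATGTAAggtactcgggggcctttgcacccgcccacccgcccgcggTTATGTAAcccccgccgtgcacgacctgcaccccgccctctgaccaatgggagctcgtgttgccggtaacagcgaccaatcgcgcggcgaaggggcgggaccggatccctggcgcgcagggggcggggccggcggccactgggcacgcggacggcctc
Counted from the start site, the Per1 E-box began at -166 and the Per3 D-boxes at -205 and -158. Over both strands, 7.15% of all mouse promoter windows held CACGTG and 0.938% held TTATGTAA. Of the 9 clock genes with a window, Per3 alone held TTATGTAA, and the Per1 windows did not hold one. The cyclic AMP response element TGACGTCA, present in 1.79% of all windows, was in none of their 14 windows.

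Nr1d1 (chromosome 11, 98767932 to 98775333, minus strand) encodes REV-ERB alpha, a haem-binding nuclear receptor that represses Arntl. It measured 8.68 CPM at d1 from 28 UMIs, 19.3 at d4 from 113, 23.2 at d7 from 129 and 50.4 at d14 from 217. The level was higher in each later section, and d4 and d7 did not differ beyond the interval, with a ratio of 1.2 (0.924 to 1.56), though with TMM that ratio was 1.39 (1.07 to 1.80). Nr1d1 at d14 was 5.81 times (3.91 to 8.94) its level at d1, 2.61 times (2.07 to 3.3) that at d4 and 2.18 times (1.74 to 2.73) that at d7. Against d1 it was 2.67 times (1.76 to 4.17) as high at d7 and 2.23 times (1.46 to 3.50) as high at d4. The d4 value was 1.96 with TMM, under the fold of a call. Nr1d1 had the widest range of the 9 tested clock genes, and 4.20% of all genes tested had a wider one. The share of spots with an Nr1d1 UMI, after thinning every spot to 2500 UMIs, was 2.47% at d1, 5.16% at d4, then 4.93% at d7 and 10.3% at d14. Without thinning it was 5.84%, 15.1%, 15.5% and 16.0% in order of time, in spots of unequal depth. Nr1d1 overlaps Thra on the opposite strand by 1075 bases.

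Nr1d2 (chromosome 14, 18204054 to 18239127, minus strand), which encodes the related REV-ERB beta, measured 45.9 CPM for d1, 35.6 for d4, 45.8 for d7 and 72.9 for d14. Its UMIs numbered 148, 208, 255 and 314. The d4 section was lowest and d14 highest, while d1 and d7 did not differ beyond the interval. It was 2.05 times (1.72 to 2.45) as high at d14 as at d4, and 1.97 times with CPM over all genes, which ends the call. Against d1 the ratio at d14 was 1.59 (1.3 to 1.95). The paralogs differed from each other at d1. There were 18.9 Nr1d1 UMIs per 100 Nr1d2 UMIs at d1 against 54.3 for d4, 50.6 for d7 and 69.1 for d14. The odds ratio against d1 was 2.87 (1.77 to 4.75) at d4 and 3.65 (2.32 to 5.89) at d14.

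Dbp (chromosome 7, 45705088 to 45710203, plus strand) encodes the PAR bZIP factor whose RNA has one of the widest daily swings in adult tissues. It measured 23.9 CPM at d1 from 77 UMIs, 28.2 at d4 from 165, 43.1 at d7 from 240 and 47.2 at d14 from 203. The sections formed a low pair, d1 and d4, and a high pair, d7 and d14. The ratio to d1 was 1.80 (1.39 to 2.36) at d7 and 1.97 (1.51 to 2.60) at d14. Neither reached 2-fold, though with TMM the d14 ratio was 2.06. Dbp overlaps Sphk2 on the opposite strand by 737 bases.

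Tef (chromosome 15, 81802421 to 81826863, plus strand) encodes a PAR bZIP factor that binds the same D-box as DBP. It measured 53.3 CPM at d1, 56.3 at d4, 47.4 in the d7 section and 101 at d14, from 172, 329, 264 and 435 UMIs. The d14 section stood above the other three. Among those, d7 was lower than d4 by a ratio of 0.842 (0.714 to 0.994), or 0.975 (0.826 to 1.15) with TMM. At d14 it was 2.13 times (1.83 to 2.49) its level at d7, 1.89 times (1.58 to 2.27) that at d1 and 1.80 times (1.55 to 2.08) that at d4. Dbp and Tef did not keep a fixed proportion. There were 44.8 Dbp UMIs per 100 Tef UMIs at d1, 50.2 at d4 and 46.7 at d14, but 90.9 at d7, an odds ratio of 2.03 (1.46 to 2.84) against d1.

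Ciart (chromosome 3, 95878503 to 95882251, minus strand), also known as Chrono, a repressor of the ARNTL and CLOCK pair, was near the limit of detection. It had 8 UMIs at d1, 5 at d4, then 8 at d7 and 7 at d14, or 2.48, 0.855, 1.44 and 1.63 CPM, and no pair of sections differed beyond the interval. A difference was not detectable at this depth. Its window held the E-box CACGTG 3 times, and no other clock gene with a window held it more than once per window. Ciart lies opposite the antisense gene C920021L13Rik. Reads of such opposite-strand pairs cannot be told apart unless the counting used strand, which is not given in the sources used here.

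The windows of Nr1d1 and Tef are shown because both genes had their highest level at d14. The Nr1d1 window is chr11:98775378-98775627, minus strand, where capitals mark AACGTG, the reverse complement of the E-box variant CACGTT, which begins at -28 from the start. The Tef window is chr15:81811164-81811413, plus strand, before the downstream of its RefSeq starts, with CACGTG in capitals, from -138 of that start.
Nr1d1: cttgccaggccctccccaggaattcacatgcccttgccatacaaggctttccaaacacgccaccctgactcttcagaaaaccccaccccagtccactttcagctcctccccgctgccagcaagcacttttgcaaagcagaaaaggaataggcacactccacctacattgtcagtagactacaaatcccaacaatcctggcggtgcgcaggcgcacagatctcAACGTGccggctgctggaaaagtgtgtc
Tef: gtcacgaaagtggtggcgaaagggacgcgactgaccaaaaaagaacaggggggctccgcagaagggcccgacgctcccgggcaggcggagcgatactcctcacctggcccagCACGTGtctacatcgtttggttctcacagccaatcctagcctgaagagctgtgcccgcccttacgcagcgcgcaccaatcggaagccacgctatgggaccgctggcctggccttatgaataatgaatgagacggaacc
The letters CACGTT were in 4.68% of all windows. No searched motif was in the windows of Dbp, Clock or Nr1d2. A match is a run of letters and was not tested as a binding site.

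The relation of opposite phases was read within each section, as Arntl UMIs per 100 UMIs of a gene known to peak opposite to it. Per 100 Dbp UMIs there were 22.1 Arntl UMIs for d1, 36.4 for d4, 18.8 for d7 and 16.7 for d14. The odds ratio against d4 was 0.516 (0.326 to 0.814) at d7 and 0.461 (0.279 to 0.753) at d14, while d4 against d1 gave 1.64 (0.877 to 3.21). Arntl relative to Dbp was therefore lower in the d7 and d14 sections than at d4, and no comparison with d1 went beyond counting error. The level of Arntl by itself did not differ beyond the interval between d4 and d7 or d14, while that of Dbp did.

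Relative to Nr1d1 the order was another. Per 100 Nr1d1 UMIs there were 60.7 Arntl UMIs at d1, 53.1 at d4, 34.9 in the d7 section and 15.7 at d14. The d14 section was below each of the others, with odds ratios of 0.260 (0.122 to 0.562) against d1, 0.296 (0.177 to 0.488) against d4 and 0.45 (0.265 to 0.759) against d7. Between d1 and d4 the odds ratio was 0.875 (0.423 to 1.85).

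The 2 period genes that were low at d4 gave the largest contrast with Arntl, in pairs chosen after their values were seen. Arntl UMIs per 100 Per1 UMIs were 6.51 at d1, 41.1 at d4, then 12.3 at d7 and 9.24 at d14. The d4 section stood above d1 by an odds ratio of 6.28 (3.46 to 11.9). Per 100 Per2 UMIs they were 36.2, 207, 141 and 54.0 in the same order, with an odds ratio of 5.65 (2.66 to 12.4) for d4 against d1. In the remaining pairs, d4 against d1 gave 2.51 (1.38 to 4.78) with Nr1d2 and 1.84 (1.02 to 3.48) with Tef. With Ciart it gave 5.51 (1.38 to 24.4), from 5 Ciart UMIs at d4 and 8 at d1. With Per3 it gave 1.49 (0.796 to 2.92), and no pair of sections went beyond the interval. The section with the highest Arntl value was thus also that with the lowest Per1, Per2 and Nr1d2 values. It was not the section with the least Nr1d1, which was d1, or with the least Dbp or Tef, and Per3 had its highest value there.

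**Figure D3:**
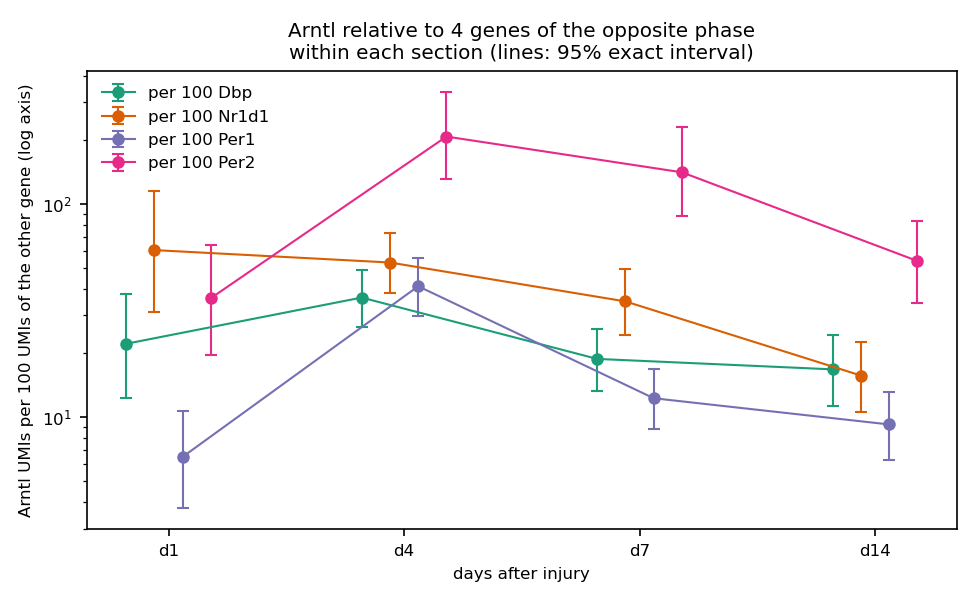
Arntl UMIs per 100 UMIs of Dbp, Nr1d1, Per1 and Per2 in each section on a log axis, with lines for the exact 95% interval. The Per1 and Per2 points peak at d4, at 41.1 and 207, while the Nr1d1 points go down from 60.7 at d1 to 15.7 at d14.

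By likeness of pattern, measured as the root mean square distance of centred log2 CPM over the 4 sections among 6407 genes with a mean of at least 20 CPM, the genes nearest to Arntl were Mmgt1, Col5a2, Plekhg5, Mtmr14 and Serpinh1, at distances of 0.039 to 0.048. Clock would rank 580 by the same measure, and Per3 1448. Nearest to Dbp were Higd1b, Cox8b, Csrp3, Asb10 and Tigar, at 0.070 to 0.092, while Nr1d2 would rank 674 and Nr1d1 4324. Against the mirror image of the Arntl pattern, Ciart, with 5 to 8 UMIs a section, would rank 149 and Nr1d2 2986. Clock would rank 3736, Per3 3916, Per1 4338, Per2 4433, Tef 5005, Dbp 5476 and Nr1d1 6283. Per1 and Per2 were nearer to that mirror image than to Arntl itself, where they would rank 6268 and 6272. With 4 sections, many genes share any given pattern.

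The other transcription factors of the clock were a list of 10 genes, of which 9 passed the minimum. Calls fell on Npas2 and Cry1, where 26.9% of all genes tested had a call in at least 1 of the 6 pairs. Npas2, a paralog of Clock that can replace it as the partner of ARNTL, measured 5.27 CPM for d1, 10.6 for d4, 7.00 for d7 and 3.72 for d14. It was 2.01 times as high at d4 as at d1 and 2.85-fold lower at d14 than at d4. Cry1, a repressor that acts with the PER proteins, measured 26.7, 14.0, 14.5 and 11.2 CPM in order of time and was 2.39-fold lower at d14 than at d1. These were the only calls in the list over the 6 pairs. With TMM, 0 genes of the list were higher and 1 lower at d4 against d1, and 2 were higher at d14 against d4. The following members were named after their values were seen. Nfil3, a repressor at D-boxes and so the counterpart of DBP and TEF, measured 16.4, 27.4, 29.6 and 14.9 CPM. Hlf, the remaining PAR bZIP factor, measured 13, 13.7, 14.0 and 24.2 CPM, with d14 the highest as for Tef. The 6 tested genes of 7 that control the turnover of clock proteins, among them the kinases Csnk1d and Csnk1e, gave 0 calls in every pair. The share of all genes with a call in at least 1 pair was the 26.9% given above.

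Of the genes known as outputs of the clock in the heart or elsewhere, a list of 9, 0 were higher and 2 lower at d4 against d1, where the shares of all genes were 6.82% and 1.79%. At d7 against d1, 1 was higher and 3 lower, against shares of 4.40% and 3.45%. At d14, 4 were higher than at d1, 5 higher than at d4 and 5 higher than at d7, against 7.60%, 4.84% and 4.93% of all genes, with 0 lower in each. Klf15, a regulator of cardiac metabolism and repolarisation, measured 51.2 CPM at d1, 8.89 at d4, 14.5 in the d7 section and 65 at d14. It was low at d4 and d7, and its ratio of d14 to d4 was 7.31. Nampt, the rate-limiting enzyme of NAD salvage and a direct ARNTL and CLOCK target, measured 40.0, 20.4, 38.1 and 83.6 CPM. Its lowest value was also at d4, and d14 was 4.11 times as high. Kcnip2, a subunit of the transient outward potassium channel, measured 60.8, 83.6, 144 and 145 CPM, with d7 and d14 above d1 by 2.38 and 2.39 times. Dgat2, an enzyme of triglyceride synthesis, measured 123, 53.7, 49.7 and 170 CPM. Several of these genes are also known to respond to glucocorticoids or to heart maturation.

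The glucocorticoid-responsive genes, of which 8 of 9 passed the minimum, had 7 lower and 0 higher at d4 against d1, where 1.79% of all genes were lower. At d14 against d4, 8 were higher and 0 lower, where 4.84% of all genes were higher. Their median log2 ratios were -1.51 and 1.59, beside 0.19 and -0.27 over all genes. Fkbp5, a chaperone induced by the glucocorticoid receptor, measured 71.6, 17.4, 6.29 and 54.4 CPM, and Tsc22d3, also known as GILZ, measured 154, 93.2, 92.3 and 429 CPM. At d7, 6 of these genes were lower than at d1, where 3.45% of all genes were lower. Per1, which is both a clock gene and a glucocorticoid target, measured 25 CPM at d4 and 65.9 at d7. Whether glucocorticoids had a part in the Per1 values was not tested. In the immediate early genes, 4 of 9 tested were higher at d4 and 6 higher at d7 against d1, beside 6.82% and 4.40% of all genes.

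**Figure D4:**
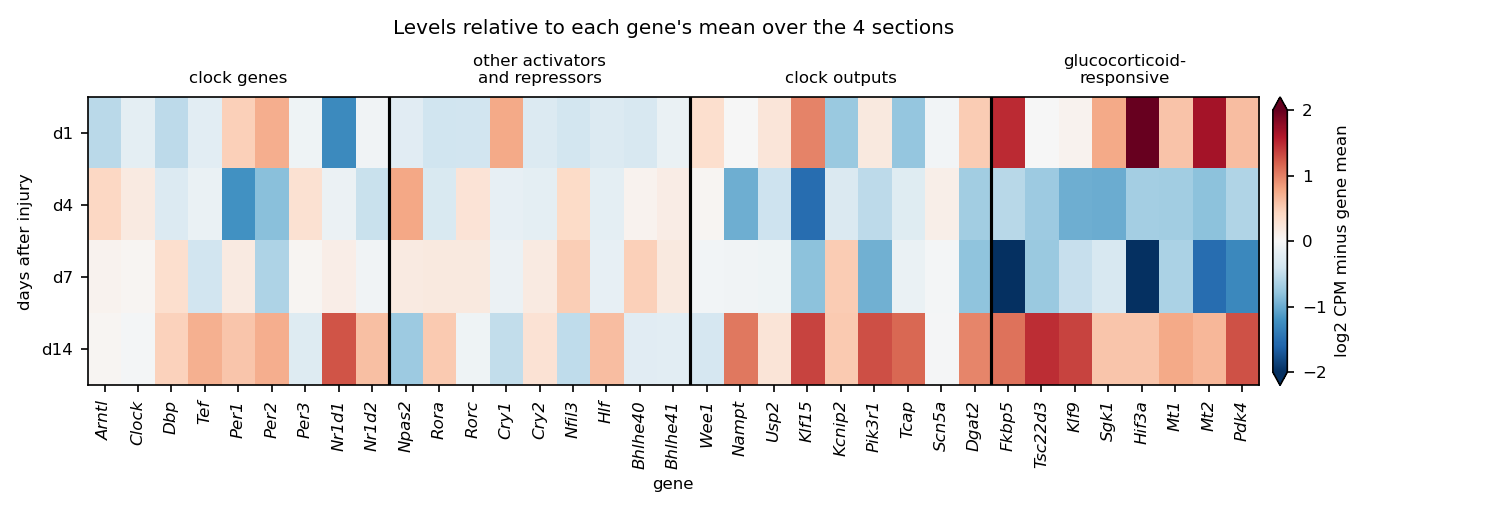
Levels of the tested clock genes, other clock activators and repressors, clock outputs and glucocorticoid-responsive genes in each section, as log2 CPM minus the gene's mean over the 4 sections (red above, blue below, colours end at 2 either way). The d4 row is blue for Per1, Per2, Klf15 and the glucocorticoid-responsive genes, and the d14 row is red for Nr1d1, Tef and Hlf.

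The clock genes were next read inside each section. Spots were clustered by expression without the clock genes and the related lists, and the cluster richest in 19 genes of injured tissue, such as Postn, Lgals3 and Lyz2, was set against the remaining spots. These injury-list-rich spots numbered 27 at d1, 52 at d4, then 54 at d7 and 172 at d14. Summed cardiomyocyte markers were lower in them than in the rest, at 31694 against 63113 CPM at d1, 22343 against 53058 at d4, 25387 against 61761 in the d7 section and 52484 against 76332 at d14. Summed fibroblast markers were higher, at 2397 against 734 CPM for d1, 5928 against 1277 for d4, 7340 against 1518 for d7 and 3946 against 1500 for d14. Macrophage markers were higher too, at 2297 against 105, 631 against 103, 697 against 161 and 1099 against 412 CPM in order of time. Neutrophil markers measured 1145 against 169 CPM at d1 and mural markers 2402 against 826 at d4. Skeletal muscle markers measured 490 against 115, 1000.4 against 211, 870.1 against 132 and 879 against 199.9 in order of time. That set was mostly 1 gene, Acta1, which gave 414 of its 426 UMIs in the whole d1 section. It gave 1720 of 1744 at d4, 837 of 1002 at d7 and 1294 of 1314 at d14. Col1a1, Lyz2, Cd68, S100a8 and S100a9 belong both to the injury list and to the fibroblast, macrophage or neutrophil markers. The higher sums of those markers were thus partly set by how the region was picked. The part of these marker sets in the values that follow was not tested. Spots of a section come from 1 heart and were not treated as replicates.

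The Arntl value was higher in the injury-list-rich spots than in the rest of every section. It measured 26.5 CPM there against 4.23 in the rest for d1, 23.3 against 8.65 for d4, 19.2 against 7.30 for d7 and 15 against 6.60 for d14. The counts behind the first number of each pair were small, at 4, 15, 7 and 10 UMIs. The ratio was 6.26 (1.49 to 20.3) at d1, 2.69 (1.39 to 4.92) at d4, 2.63 (0.992 to 5.96) in the d7 section and 2.27 (0.968 to 4.92) at d14. The interval lay above 1 at d1 and d4. It did so for 14.2%, 20.4%, 18.3% and 19.6% of all genes tested in the sections in order of time. The d1 value rested on the choice of clusters, because with a finer clustering (Leiden resolution 1.2) the region held 0 Arntl UMIs.

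Per2 also had a value above that of the rest in every section, with ratios of 1.89, 2.11, 3.30 and 1.28 in order of time. Its interval excluded 1 at d7, with 3.30 (1.11 to 8.19) from 6 UMIs. Clock and Nr1d2 had values below the rest in every section. Clock had 0 UMIs in the region at d1 and ratios of 0.759, 0.974 and 0.786 after that, each with an interval that held 1. Nr1d2 had 1 UMI in the region at d1 and a ratio of 0.138 (0.0035 to 0.783), which was 0.876 with a coarser clustering, and ratios of 0.908, 0.767 and 0.772 later, whose intervals held 1. Dbp stood on either side of 1. It was lower in the injury-list-rich spots at d4, at 15.5 against 29.8 CPM, with a ratio of 0.521 (0.245 to 0.985). It was higher in them at d14, at 65.9 against 43.7 CPM, with a ratio of 1.51 (1.05 to 2.12). Per3 was lower there at d4, with a ratio of 0.484 (0.228 to 0.912). Per1 was higher there at d14, at 121 against 78.9 CPM, with a ratio of 1.54 (1.19 to 1.97). In all, the interval excluded 1 for 2 of the 10 clock genes at d1, 3 at d4, then 1 at d7 and 2 at d14. Over all genes with at least 5 CPM in the section it did so for 20.3%, 35.1%, 27.7% and 27.0%. Ciart was under that minimum in every section, and Per2 was under it at d4. The share of clock genes was near the background at d1, d4 and d14 and under it at d7.

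The differences between sections were also present outside the injury-list-rich spots. In the remaining spots Nr1d1 measured 8.78, 19.8, 23.2 and 47.6 CPM in order of time, and Per1 80.4, 25.2, 65.9 and 78.9 CPM. Both orders were close to those of the whole sections. Across all clusters of a section, of which there were 5 to 8, Nr1d1 ranged from 2.87 to 10.3 CPM at d1 and from 44.3 to 65.9 CPM at d14. By value the lowest cluster at d14 lay above the highest at d1. Not all intervals were apart, since a d1 cluster with 1 UMI had an interval up to 36.9 CPM. That of the lowest d14 cluster was 32.7 to 58.5 CPM. Per1 ranged from 20.05 to 30.4 CPM over the clusters of d4, by value under its lowest cluster of any other section, 47.8 CPM at d7. Here too intervals overlapped, at 5.66 to 53.2 CPM for a d4 cluster with 4 UMIs and 34.9 to 64.0 CPM for that d7 cluster.

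**Figure D5:**
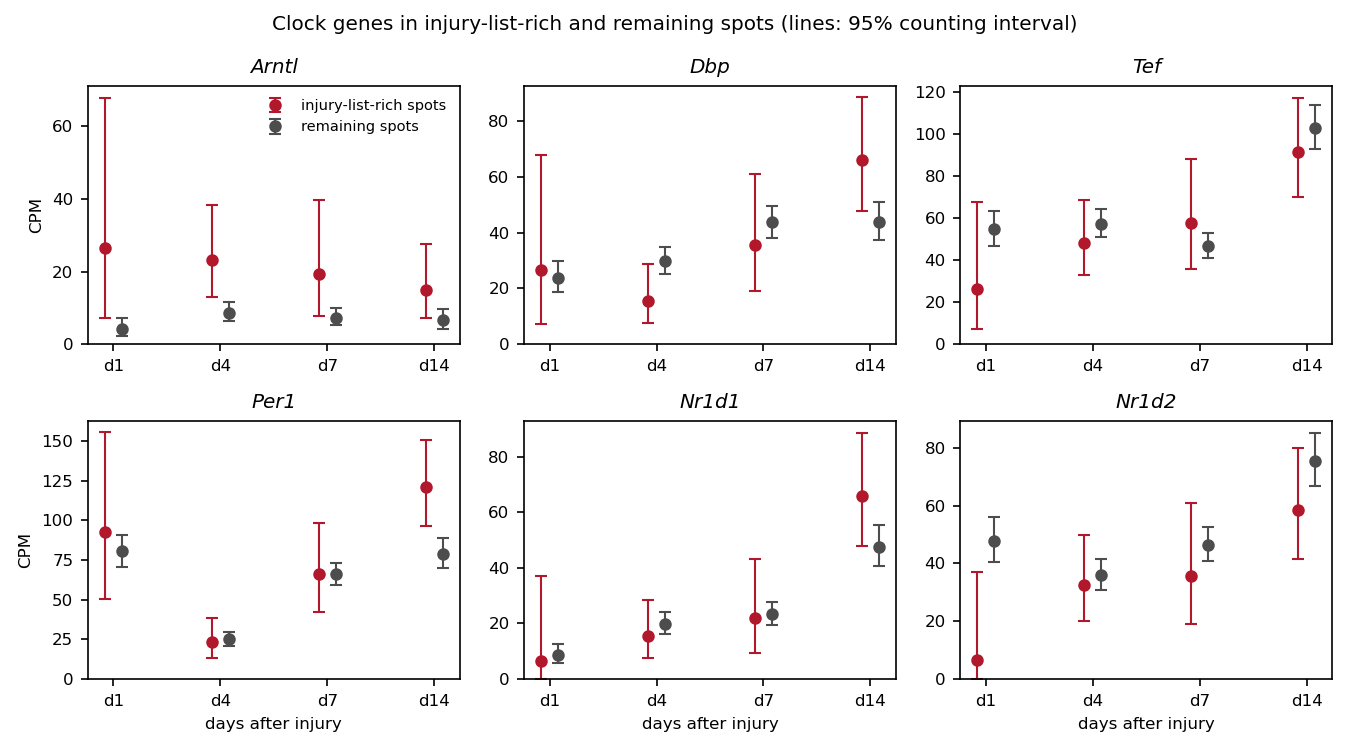
Levels in CPM of Arntl, Dbp, Tef, Per1, Nr1d1 and Nr1d2 in the injury-list-rich spots (red) and the remaining spots (grey) of each section, with lines for the exact 95% Poisson interval. The red Arntl point is above the grey one in each section, by 26.5 against 4.23 CPM at d1, with wide intervals, while for Nr1d1 both points are higher at d14 than at d1.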

How the data were processed

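Spatial expression was measured on Visium arrays in 4 sections, 1 each at 1, 4, 7 and 14 days after injury. The authors deposited raw UMI counts for each spot, which the file headers credit to Space Ranger 1.3.0; the build was mm10 per the submitters' processing notes, which also name Seurat 4.1.1 without its role. Spot positions and images were not used.

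Spots with at least 500 UMIs were kept, which left out 2 or 3 per section. Counts were summed per section or cluster and scaled to a total from which 8 haemoglobin and 13 mitochondrial genes had been removed. Sections shared 247 spot barcodes among all 4, since these name array positions. Levels carry exact Poisson intervals, ratios exact conditional binomial (Clopper-Pearson) intervals and gene pairs exact conditional odds ratio intervals, all at 95% and for counting error only. A call needed a 2-fold ratio, an interval without 1 and a mean of at least 5 CPM over the sections. Spots were clustered per section (scanpy 1.11.5, Leiden in igraph 0.11.9, resolution 0.8, 15 components, 15 neighbours, 2000 variable genes, 57 genes of the lists left out). Shares of spots were taken after thinning to 2500 UMIs, which left out 40, 3, 3 and 131 spots in order of time. Alternatives were CPM over all genes, TMM (edgeR 4.0.16, R 4.3.3), other spot, gene and fold minimums, leaving out the injury-list-rich spots, means over spots, spot shares without thinning or thinned to 1500 UMIs, other resolutions and taking as region the 10% of spots highest for the injury list. Computation used Python 3.11.15, numpy 2.4.6 and scipy 1.17.1, and the scripts were tested on simulated data.

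All 10 clock genes were named in every comparison. Of the other lists, members called in at least 1 pair could be named, at most the 8 with the most UMIs per list, and the 5 genes nearest by each measure of likeness. Nfil3, Hlf, Csnk1d and Csnk1e had no call and were named after their values were seen. The genes nearest to the mirror image of Arntl are not reported here. Predicted, ribosomal protein, haemoglobin and mitochondrially encoded genes were left out of likeness. So were Xist, Tsix and the Y-linked genes Ddx3y, Eif2s3y, Uty and Kdm5d, while other X-linked genes were kept. The clock genes and the lists were chosen with earlier results of these data known.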

Additional observations from a re-analysis of the deposited data

Results flagged for a closer look

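Dbp stood on opposite sides of 1 in 2 sections when the injury-list-rich spots were set against the remaining spots, each with an interval that excluded 1. The ratio was 0.521 at d4, from 10 UMIs in the region, and 1.51 at d14, from 44 UMIs. The summed cardiomyocyte markers of the region were 22343 CPM at d4 and 52484 CPM at d14. The difference between the sections was not tested.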

How the results depend on the processing

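Of the values recomputed under the alternatives, 1370 stayed within their interval or within 1.5 times of a count, 133 moved further and 1 reversed. Of the 133, 35 were shares of spots without thinning and 28 shares of spots thinned to 1500 UMIs. With a 1.5-fold rule, the genes called in either direction were 2241 at d4, 1901 at d7 and 3353 at d14 against d1, 1617 at d7 and 3786 at d14 against d4, and 2534 at d14 against d7, where the 2-fold rule gave 920, 839, 1684, 419, 1707 and 1115. A minimum mean of 20 CPM gave 305, 342, 740, 106, 745 and 469, and a minimum of 1 CPM gave 1410 at d4 and 1259 at d7 against d1 and 834 at d7 against d4. With the 1.5-fold rule, 2 clock genes were higher at d4, 2 at d7 and 4 at d14 against d1, and 2 at d7 against d4. With TMM, 0 were higher at d4 and 2 at d14 against d1, and without the injury-list-rich spots 2 were higher at d4, Arntl being the added gene. With the minimum of 20 CPM, which leaves out Per2, 1 clock gene was lower at d4 and 0 at d7 against d1. Between injury-list-rich spots and the rest, the d1 ratio of Arntl was 0 at resolution 1.2, the d1 ratio of Nr1d2 was 0.876 at resolution 0.5 and 0 at 1.2, and the d14 ratio of Per1 was 2.04 with the top 10% of spots. The causes were not tested. Ciart had 5 to 8 UMIs per section, and Arntl 4 to 15 in the injury-list-rich spots. No paired analysis was possible because each time point had 1 section.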

Other observations

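Cirbp and Rbm3, RNA-binding proteins induced by mild cold and known to follow daily body temperature, had their highest value at d1. Cirbp measured 112 CPM for d1, 84.8 for d4, 78.1 for d7 and 47.9 for d14. Rbm3 measured 345 CPM at d1, 326 at d4, 307 in the d7 section and 102 at d14. Its d4 and d1 levels did not differ beyond the interval, with a ratio of 0.944 (0.876 to 1.02). Both were lowest at d14, and against d1 they were 2.35-fold and 3.37-fold lower there. In that pair 8.16% of all genes tested were called lower.

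Tcap, a protein of the sarcomere Z-disc and a known clock output, measured 299 CPM at d1, 429 at d4, then 467 at d7 and 1129 at d14, and was 3.77 times as high at d14 as at d1. Pik3r1, a subunit of PI3 kinase, measured 19.5, 12, 8.80 and 41.8 CPM in the same order. It was 4.75 times as high at d14 as at d7.

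The share of spots with a UMI, after thinning every spot to 2500 UMIs, gave the same low section for Per1 as the summed counts, at 18.5% of spots for d1, 5.31% for d4, 13.9% for d7 and 17.0% for d14. For Per2 the shares were 3.95%, 1.37%, 0.908% and 2.97%. For Tef they were 10.6%, 12.1%, 9.08% and 19.4%. Without thinning, in spots of unequal depth, the shares were 43.4%, 19.0%, 36.4% and 24.9% for Per1, 9.44%, 3.78%, 3.75% and 4.77% for Per2, and 30.1%, 36.9%, 28.8% and 28.9% for Tef.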
